A study of Mus musculus with 14 samples.

Results

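The genes described here encode the nuclear subunits of the mitochondrial respiratory chain and ATP synthase, measured in mouse heart after irradiation of the chest. They were taken by gene symbol, by a rule written with earlier results of these data known. Of the 54532 genes in the count table, 87 protein-coding genes carried a subunit symbol (Nduf followed by a, b, c, s or v, Sdh, Uqcr, Cox4 to Cox8, Atp5, Cyc1 and Cycs). They fell into 35 genes of complex I, 4 of complex II, 9 of complex III, 20 of complex IV and 18 of complex V, and Cycs, which encodes cytochrome c. Cyc1 was counted with complex III, and Ndufa4 and Ndufa4l2 with complex IV, where their proteins are found. Hearts came from 14 wild-type male C57BL/6J mice. The irradiated mice had received 30 Gy of 60Co γ-rays to the chest at 8 weeks of age, and the control mice none. RNA was taken 1 day later from 3 control (Control_1d) and 3 irradiated hearts (IRR_1d), and 6 weeks later from 4 control (Control_6w) and 4 irradiated hearts (IRR_6w), with 1 library from each heart.

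The respiratory chain passes electrons from NADH, through complex I, or from succinate, through complex II, to ubiquinone, and then through complex III and cytochrome c to oxygen at complex IV. Complexes I, III and IV pump protons across the inner mitochondrial membrane, and complex V uses the gradient to make ATP. Complex II is encoded wholly in the nucleus, whereas the other complexes join nuclear subunits to subunits made inside the mitochondrion. Cardiac muscle depends on this pathway for contraction and carries heart-type isoforms of several complex IV subunits.

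Counts per library ran from 13336746 to 16837265. Levels are given as CPM, the counts of a gene scaled to a common library total, where TMM factors first adjust the totals so that the bulk of genes is level between libraries. Some libraries stood apart, and part of the results is also given without them. The medians by complex and most values of single subunits and gene lists rest on all libraries. Ucp1, the brown fat uncoupling protein, had counts in 3 libraries and 0 in the other 11, at 222 CPM in IRR_1d replicate 3, 484 CPM in Control_6w replicate 3 and 687 CPM in IRR_6w replicate 1. Counts of 0 were found for 29.6, 20.4, 8.01 and 1.58% of 1835 genes of moderate level in Control_1d replicate 1, IRR_6w replicate 3, IRR_6w replicate 4 and Control_6w replicate 1, and for at most 0.272% in the other libraries. All 10 cardiomyocyte markers had counts in every library, and Myh6, the main ventricular myosin heavy chain of the mouse, was lowest at 1206 CPM in Control_6w replicate 3 and highest at 14628 CPM in Control_1d replicate 3.

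Of the 87 subunits, 84 had enough counts to be among the 16034 genes tested. Per kilobase of gene length, Atp5a1 (the ATP synthase α-subunit) was the most abundant, with a mean of 1105 CPM per kb over the 14 libraries, followed by Atp5b (the catalytic β-subunit) at 769 CPM per kb. The most abundant subunit of complex IV was Cox6a2, a heart-type isoform, at 587 CPM per kb. In complex III it was Uqcrfs1, the Rieske iron-sulfur protein, at 527 CPM per kb, and in complex II Sdhb, the iron-sulfur subunit, at 359 CPM per kb. The median subunit of complex I stood at 93.2 CPM per kb, against 241, 250, 209 and 117 CPM per kb for complexes II, III, IV and V. At the other end of the tested subunits stood Cox6b2, a testis-type isoform, at 1.64 CPM per kb and Ndufb2 at 5.47 CPM per kb. The gene length is the deposited one, and a gene whose deposited length holds exons that its main transcript skips is set too low on this scale.

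The 3 subunits that were not tested had few or no counts. Cox7b2, another testis-type isoform, had 31 counts in IRR_6w replicate 4, 11 in Control_6w replicate 1 and at most 5 in each other library. Cox8c had 0 counts in every library, which by counting alone allows up to 3 counts each, or 0.143 to 0.302 CPM. A second gene model named Atp5o (ENSMUSG00000116933) also had 0 counts, and its exons lie to 100% within those of Atp5o and Donson. Whether reads there could be assigned to it depends on how shared exons were counted, which was not tested. Atp5o itself shared 47.9% of its exonic bases with other genes, Ndufb6 shared 39.0%, Ndufa13 30.0%, Uqcrc2 19.7% and Ndufb9 19.5%. Strandedness is not given in the sources used here, and the values of these genes are uncertain for that reason.

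One day after irradiation, no subunit passed the test between irradiated and control hearts. The median log2 fold change of the 84 subunits was 0.13, against 0.06 over all 16034 genes. A higher fitted level in IRR_1d was found for 53 subunits, or 63.1%, against a background of 55.1% of all genes, and a lower one for 31. This tally rests on single libraries. Without IRR_1d replicate 1, 64 of 85 subunits were lower (all genes, 45.4%), and without Control_1d replicate 1, 54 of 85 (all genes, 47%). Without IRR_1d replicate 3, 73 of 85 were higher, where 45.6% of all genes were lower. With edgeR's quasi-likelihood test, 0 subunits were DEGs (an adjusted p under 0.05 with a fold change above 2 or below 0.5), where 0.0249% of all genes were DEGs that were higher and 0% DEGs that were lower. The count at an unadjusted p under 0.05 was also 0, with backgrounds of 1.94% higher and 0.96% lower. DESeq2 and limma called 0 subunits too. By complex, the medians were 0.14 for complex I, -0.22 for complex II, 0.08 for complex III, 0.29 for complex IV and 0.10 for complex V, and Cycs stood at -0.17.

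Cox6b2 had the smallest p of all subunits at this time. It stood at 0, 0 and 1.69 CPM in the controls and at 3.67, 2.49 and 5.81 CPM in the irradiated hearts. The groups did not overlap, as for 6.52% of all genes in this direction, and Cox6b2 was the only subunit of which this can be said. Its log2 fold change was 2.80 (SE 1.37) with an adjusted p of 1.00 in edgeR's quasi-likelihood test, and its level was near the lower limit of detection. The size of this value rests on Control_1d replicate 3, the only control with counts, and without any one of the other libraries it was 2.21 to 3.05. Cox6a1, the widely expressed partner of Cox6a2, stood at 8.71, 46.3 and 77.7 CPM in the controls and at 68.0, 71.7 and 140 CPM in the irradiated hearts, which overlap. Ndufs4, a small accessory subunit near the electron input of complex I, stood at 271, 165 and 184 CPM against 182, 185 and 105 CPM, with a log2 fold change of -0.39 (SE 0.348). Uqcrc2, a core protein of complex III, stood at 1064, 813 and 715 CPM against 727, 723 and 440 CPM, and Sdhb at 1044, 1002 and 722 CPM against 716, 940 and 440 CPM. For Ndufs4, Uqcrc2 and Sdhb the lowest value was that of IRR_1d replicate 3, a library with Ucp1 counts. Ndufb11 of complex I (39.4, 199 and 252 CPM against 273, 267 and 159 CPM) and Atp5mpl of complex V (51.6, 178 and 224 CPM against 211, 311 and 136 CPM) had a single low control, Control_1d replicate 1.

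At 6 weeks after irradiation, 83 of the 84 subunits had a lower fitted level in irradiated than in control hearts, against a background of 56.2% of all genes, and Cox6b2 alone was higher. The median log2 fold change of the subunits was -0.68, a fold of 0.625, where the median of all genes was -0.09. The subunit median was -1.09 without IRR_6w replicate 2 and -0.39 without Control_6w replicate 2. No single subunit passed the test. edgeR's quasi-likelihood test called 0 subunits, where 0.0187% of all genes were DEGs that were lower and 0.237% DEGs that were higher, and the smallest adjusted p was 0.437. At an unadjusted p under 0.05, 2 subunits (Ndufs4 and Cox7a2), or 2.38%, were lower, against a background of 3.37%, and 0 were higher, against 5.43%. DESeq2 and limma also called 0 subunits. At the same unadjusted limit they had 7 and 9 of 84 subunits lower, or 8.33 and 10.7%, against 3.62 and 4.72% of all genes. For 0 of the 84 subunits did the groups not overlap, where 1.64% of all genes did not overlap in this direction. The difference between the group means exceeded the pooled SD of the replicates, both on the log2 scale, for 33 subunits, or 39.3%, against 26% of all genes. At 1 day this was so for 5 subunits, or 5.95%, against 31.3% of all genes. The count at an unadjusted p under 0.05 depended on 2 libraries. It was 28 of 84 without Control_6w replicate 3, against 4.06% of all genes lower in that fit, and 48 of 84 without IRR_6w replicate 2, against 5.68%, whereas without any one of the other libraries it was 0 to 3. In heart tissue of mixed cells, fewer cardiomyocytes and less subunit RNA per cardiomyocyte cannot be told apart.

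**Figure D1:**
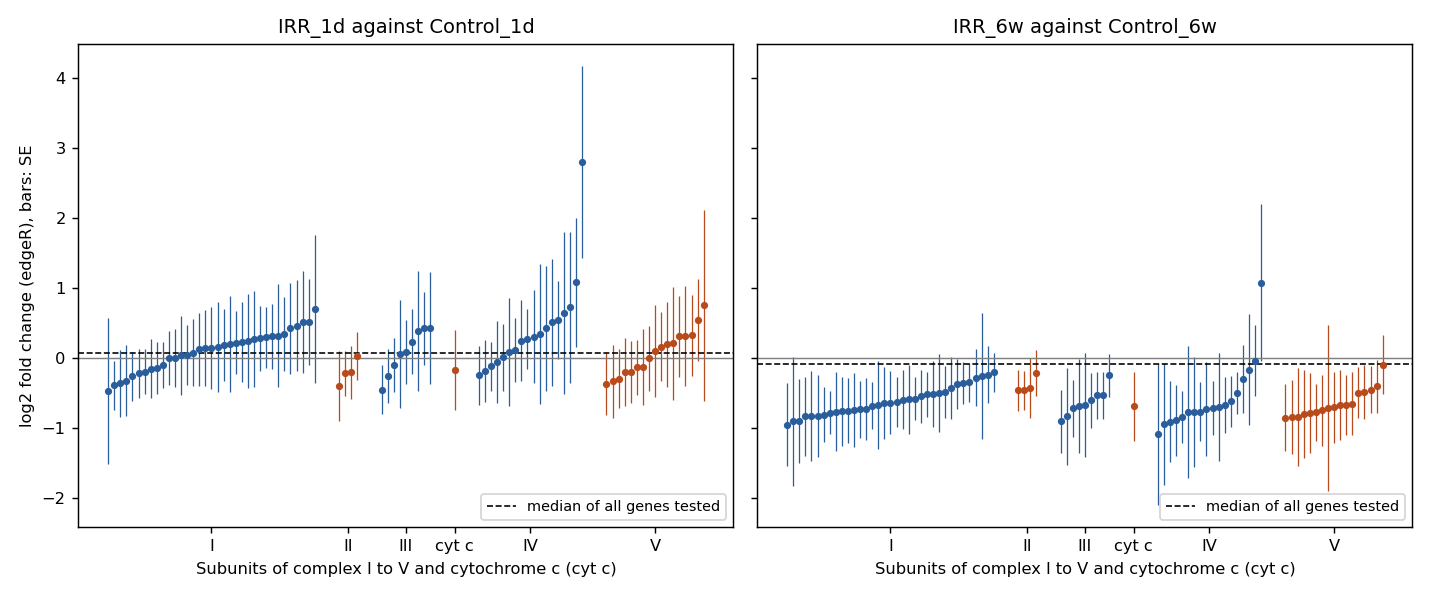
Log2 fold change of each of the 84 subunits tested (points) at 1 day (left) and 6 weeks (right), ordered within complexes I to V and cytochrome c. Bars show the SE, derived from the F value of the edgeR test. A grey line marks 0 and a dashed line the median of all genes. At 6 weeks all points but Cox6b2 lie below 0, most of them with bars that are long beside the distance to the dashed line.

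The summed level of all subunits shows how unevenly the hearts of a group contributed. It stood at 28084, 29179 and 36873 CPM in Control_1d and at 38766, 32428 and 19482 CPM in IRR_1d. It stood at 35177, 43569, 16795 and 33957 CPM in Control_6w and at 16477, 31537, 19841 and 19183 CPM in IRR_6w. At 6 weeks, 3 of the 4 irradiated hearts were thus low and 1, replicate 2, lay near the controls, while 1 of the 4 controls, replicate 3, was as low as the irradiated hearts. The group means were 32375 ± 11231 CPM (SD, n = 4) in Control_6w and 21759 ± 6679 CPM (SD, n = 4) in IRR_6w, and 31379 ± 4790 and 30225 ± 9829 CPM (SD, n = 3) in Control_1d and IRR_1d. Most of the spread was along one line. The first principal component of the subunits' log2 levels held 71.8% of their variance, the second 16.3% and the third 5.49%. Of the 84 subunits, 38 were lowest of all libraries in IRR_6w replicate 4, 17 in IRR_6w replicate 1, 11 in IRR_6w replicate 3 and 10 in Control_6w replicate 3, and 51 were highest in Control_6w replicate 2.

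**Figure D2:**
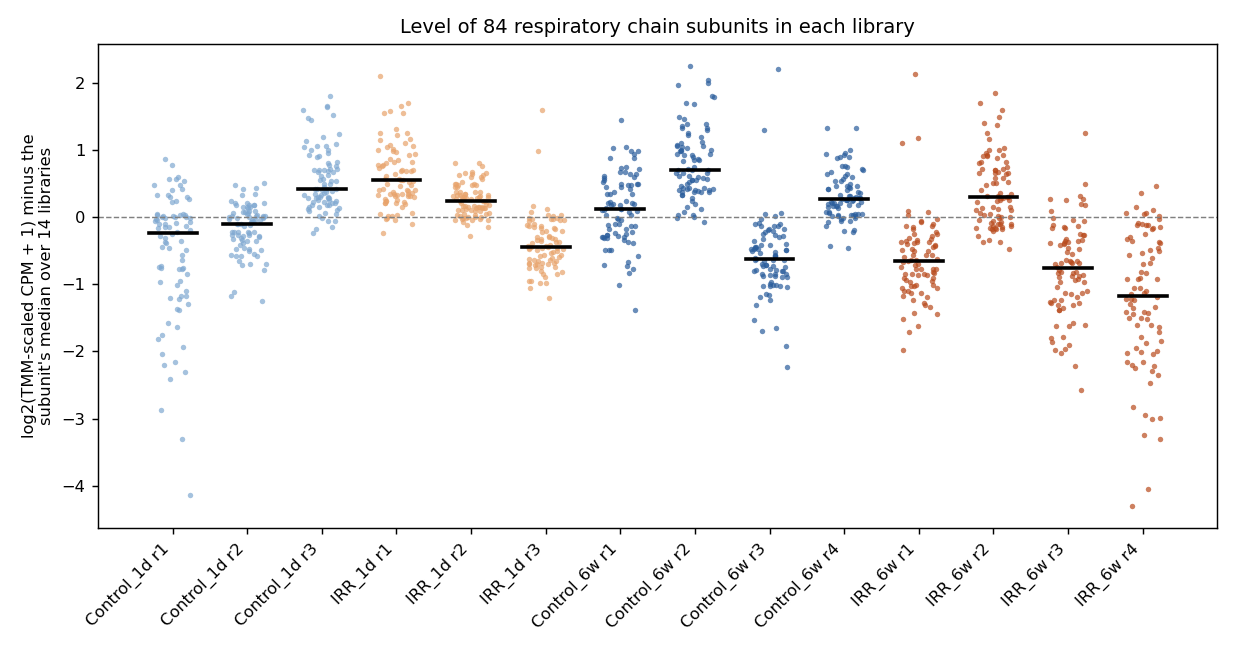
Log2 level of each of the 84 subunits (points) in each of the 14 libraries, relative to that subunit's median over the libraries, with the median of the points as a black bar (r, replicate). IRR_6w replicates 1, 3 and 4 have bars at -0.66, -0.76 and -1.17, whereas IRR_6w replicate 2 lies at 0.31 and Control_6w replicate 3 at -0.63.

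Complex I was lower by a median log2 fold change of -0.64 at 6 weeks, with all 35 subunits below 0. Ndufs4 (chr13:114287795-114388258 in mm10) stood at 187, 214, 117 and 149 CPM in Control_6w and at 75.1, 150, 87.8 and 75.2 CPM in IRR_6w. Replicate 2 of the irradiated hearts lay among the controls and the other 3 irradiated hearts below all of them. The log2 fold change of Ndufs4 was -0.78 (SE 0.303), with an adjusted p of 0.437 in edgeR's quasi-likelihood test. Ndufv2, a core subunit that carries an iron-sulfur cluster, showed the same arrangement, at 377, 589, 278 and 501 CPM against 229, 444, 214 and 196 CPM, with a log2 fold change of -0.69 (SE 0.334). Ndufs1, the largest core subunit, moved least in complex I, with 509, 595, 294 and 575 CPM in the controls and 318, 448, 427 and 516 CPM after irradiation and a log2 fold change of -0.21 (SE 0.278). Ndufb7, an accessory subunit, had the lowest value of complex I, a log2 fold change of -0.96 (SE 0.596). Its levels were 79.4, 209, 68.8 and 159 CPM against 62.4, 158, 25.1 and 19.6 CPM.

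Complex II had the smallest difference of the complexes, with a median log2 fold change of -0.45 over its 4 subunits. Sdha, the flavoprotein that oxidizes succinate, stood at 1080, 1266, 705 and 987 CPM in Control_6w and at 753, 894, 584 and 689 CPM in IRR_6w, and its log2 fold change was -0.47 (SE 0.280). Sdhb spread from 417 to 1568 CPM in the controls and from 276 to 958 CPM after irradiation, and the groups overlapped. Sdhc, a membrane anchor that helps to bind ubiquinone, stood at 520, 407, 195 and 365 CPM against 209, 291, 301 and 274 CPM, where only Control_6w replicate 3 kept the groups from separating. The summed level of complex II stood at 3629, 2933, 1518 and 2483 CPM in the controls and at 1438, 2118, 2148 and 2192 CPM in the irradiated hearts. This sum was close to level over IRR_6w replicates 2, 3 and 4, where Sdha alone stood at 894, 584 and 689 CPM. All 4 complex II transcripts are long (1142 to 3171 bases), and short transcripts were low in IRR_6w replicates 3 and 4. In IRR_6w replicate 4, the median deviation of the complex II subunits from their median over the 14 libraries was -0.09 on the log2 scale, against -1.05, -1.35, -1.32 and -1.42 for complexes I, III, IV and V, and -0.81 for the 24 subunits of the other complexes with transcripts above 1121 bases. In IRR_6w replicate 3 the values were -0.07 for complex II and -0.58 for those 24 subunits, with no test of the difference. The complex II medians cover unlike subunits. They ran from -0.74 (Sdha, its lowest of the 14 libraries) to 0.18 in IRR_6w replicate 3, and from -0.50 to 0.15 in replicate 4.

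**Figure D3:**
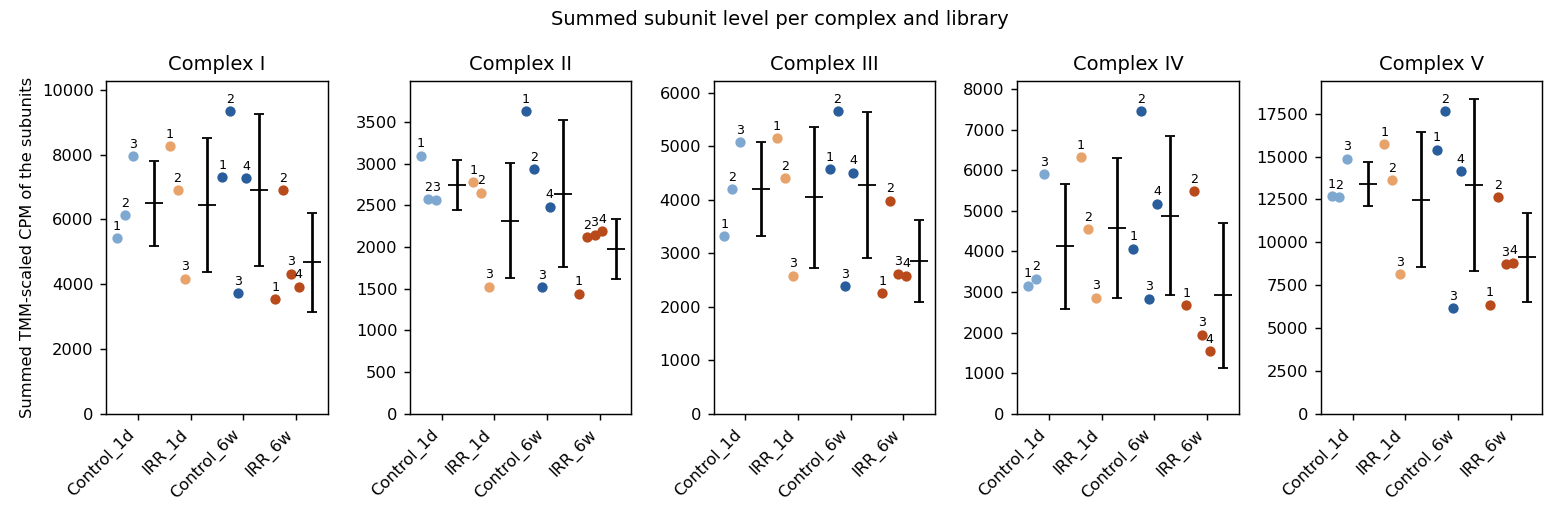
Summed TMM-scaled CPM of the subunits of each complex in each library (points, numbered by replicate), with the mean and SD of each group in black, on axes that start at 0. In complexes I, III, IV and V, IRR_6w replicate 2 lies above the other 3 irradiated hearts and Control_6w replicate 3 lies among them or close to them, while in complex II IRR_6w replicates 2, 3 and 4 lie together.

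In complex III the median log2 fold change was -0.68, and all 9 subunits were below 0. Uqcrh, the hinge protein that links cytochrome c1 to cytochrome c, stood at 409, 595, 304 and 476 CPM in Control_6w and at 238, 439, 204 and 68.3 CPM in IRR_6w. Its log2 fold change was -0.91 (SE 0.454). Cyc1, the cytochrome c1 subunit, stood at 633, 851, 354 and 690 CPM against 357, 582, 363 and 227 CPM, with a log2 fold change of -0.73 (SE 0.403). Uqcrc2 was the least different of the complex, with a log2 fold change of -0.25 (SE 0.304). Cycs, the soluble carrier between complexes III and IV, stood at 220, 558, 197 and 386 CPM against 217, 431, 78.2 and 116 CPM, so that the irradiated hearts held both a value near the top of the controls and the lowest values of all. Its log2 fold change was -0.69 (SE 0.496). Leaving out 1 library at a time gave -1.31 to -0.35 for Cycs and -1.39 to -0.60 for Uqcrh. Gene copies without introns are named for Uqcrh and Cycs, and reads could be shared with them.

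Complex IV had a median log2 fold change of -0.72 over 18 tested subunits. Cox7a2 (chr9:79755361-79759878), the widely expressed isoform of a small structural subunit, stood at 333, 352, 156 and 293 CPM in Control_6w and at 142, 272, 133 and 84.1 CPM in IRR_6w. Its log2 fold change was -0.85 (SE 0.374), with an adjusted p of 0.529 in edgeR's quasi-likelihood test. Cox4i1, the main isoform of a regulatory subunit, stood at 898, 1300, 420 and 972 CPM against 425, 944, 363 and 456 CPM, with a log2 fold change of -0.71 (SE 0.387). Its partner Cox4i2, known from lung and from responses to low oxygen, was low throughout, at 3.30 to 20.5 CPM in the controls and 3.74 to 16.4 CPM after irradiation, and its log2 fold change was -0.04 (SE 0.510). Ndufa4, a subunit of complex IV despite its name, stood at 356, 721, 289 and 529 CPM against 259, 540, 178 and 135 CPM. Its partner Ndufa4l2, which is induced by low oxygen, stood at 14.5, 25.8, 3.13 and 21.0 CPM against 6.44, 24.4, 2.86 and 5.08 CPM. Their log2 fold changes were alike, at -0.77 (SE 0.419) and -0.73 (SE 0.672). Cox7b, a small structural subunit, stood at 213, 524, 231 and 368 CPM against 177, 393, 107 and 31.8 CPM. Cox6b1 stood at 94.8, 448, 160 and 314 CPM against 180, 342, 48.1 and 23.0 CPM, and Cox6b2 at 0.609, 1.15, 1.37 and 0.674 CPM against 3.85, 1.02, 2.16 and 0.998 CPM.

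In complex V the median log2 fold change was -0.71 over 17 tested subunits, all below 0. Atp5f1, a stalk subunit that holds the catalytic head in place, stood at 604, 1100, 438 and 910 CPM in Control_6w and at 366, 834, 316 and 262 CPM in IRR_6w, with a log2 fold change of -0.78 (SE 0.405). Atp5j, another stalk subunit, stood at 279, 510, 140 and 366 CPM against 127, 375, 103 and 111 CPM, and its log2 fold change of -0.86 (SE 0.474) was the lowest of the complex. Leaving out 1 library at a time gave -1.51 to -0.56 for Atp5j and -1.28 to -0.56 for Atp5f1. In both genes, 3 irradiated hearts lay below every control, and replicate 2 lay among the controls. The abundant head subunits were closer together. Atp5a1 stood at 5359, 4286, 1645 and 3823 CPM against 1711, 2996, 3215 and 3451 CPM, with a log2 fold change of -0.41 (SE 0.382), and Atp5b at 3512, 4832, 1904 and 3835 CPM against 2190, 3344, 2219 and 2496 CPM, with -0.46 (SE 0.338). Atp5k, a small subunit of the membrane part, spread most, from 18.2 to 199 CPM in the controls and from 1.52 to 149 CPM after irradiation.

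The other comparisons rest on the same groups. Between the control hearts, the median log2 fold change of the subunits at 6 weeks against 1 day was 0.20 (all genes, 0.12). Without Control_6w replicate 2, 52 of 84 were lower, against 42.2% of all genes in that fit. With all libraries kept, 57 subunits were higher, or 67.9%, against a background of 59.1%. Cox6a1 had the smallest p there, with a log2 fold change of 1.55 (SE 0.897), followed by Cox8a with 0.86 (SE 0.529) and Ndufb2 with 0.98 (SE 0.615), and the adjusted p of all 3 was 0.902 in edgeR's quasi-likelihood test. Without Control_6w replicate 3, a library with Ucp1 counts, Cox6a1 stood at 0.52 and Cox8a at 0.40, and without Control_6w replicate 1 Ndufb2 stood at 0.53. Between the irradiated hearts, the median was -0.63 (all genes, -0.02), and 75 subunits were lower at 6 weeks, against a background of 51.4%. Without the 7 libraries that either had many genes at 0 counts or Ucp1 counts, the median was -0.05 (all genes, -0.03) and 48 of 84 were lower, against 52.2% of all genes. The 6-week side is then IRR_6w replicate 2 alone, the irradiated heart that lay near the controls, so that this value describes that heart only. With all libraries kept, Ndufs4 was the only subunit at an unadjusted p under 0.05 between the irradiated hearts, with a background of 1.60% lower. In the other direction, 4.2% of all genes and 0 subunits passed. The log2 fold change of Ndufs4 was -0.70 (SE 0.323, adjusted p 0.855 in edgeR's quasi-likelihood test). The irradiation effect at 6 weeks minus that at 1 day had a median of -0.80 (all genes, -0.15) and was below 0 for 79 subunits, against a background of 58.6%. Its smallest p was that of Cox7a2, with a difference of -1.12 (SE 0.568) and an adjusted p of 0.990. In these 3 comparisons edgeR, DESeq2 and limma called 0 subunits. The DEGs among all genes were 0% between the controls and for the change in effect, and 0.0312% higher and 0.00624% lower between the irradiated hearts. The counts of subunits at an unadjusted p under 0.05 in edgeR were 0, 1 and 0, with backgrounds of 3.54% higher and 1.75% lower between the controls, and 2.13% higher and 1.01% lower for the change in effect. The last 2 counts depended on several libraries, and the subunits counted next were all lower. Without IRR_6w replicate 2 they were 34 and 22 of 84, against 3.42 and 2.29% of all genes lower. Between the irradiated hearts the count was 5 of 85 without IRR_1d replicate 3 (all genes, 1.42%) and 4 of 84 without Control_6w replicate 3 (2.51%), and for the change in effect it was 8 of 85 without Control_1d replicate 3 (3.2%). Without any one of the other libraries, both counts were at most 3. Without the 3 libraries with Ucp1 counts they were 8 and 9 of 85, against 3.23 and 1.74% of all genes. limma gave 9 and 3 of 84, against 3.84 and 4.67%, and DESeq2 3 and 0, against 1.95 and 1.24%.

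The low irradiated hearts at 6 weeks were not low in the same way. In IRR_6w replicate 4, the 30 subunits whose principal transcript in GENCODE has at most 680 bases deviated from their own medians by -1.78 on the log2 scale (median), and the 28 subunits with transcripts above 1121 bases by -0.53. Among other protein-coding genes with a mean of at least 98.4 CPM, short transcripts were also lower than long ones there. They stood at -1.67 for 25 short and 0.07 for 1342 long transcripts, with no test against the subunits. The values in Control_1d replicate 1 were -0.74 and -0.08 for short and long subunits, and -1.10 and 0.08 for the other genes. In IRR_6w replicate 3 they were -1.01 and -0.47 for the subunits, and -0.35 and 0.03 for the other genes. The subunits of IRR_6w replicate 1 went the other way, with -0.41 for short and -0.86 for long ones, where the other genes stood at -0.32 and -0.25. Control_6w replicate 3 had -0.40 and -0.75 for the subunits, and 0.34 and -0.50 for the other genes. Atp5k, with a transcript of 371 bases, stood at 1.82 CPM in Control_1d replicate 1 and 1.52 CPM in IRR_6w replicate 4, where the other libraries had 9.73 to 199 CPM. Control_1d replicate 2, with few genes at 0 counts, also had lower short than long transcripts, at -0.31 and 0.07 for the subunits and -0.47 and 0.10 for the other genes. The part of transcript length and of genes at 0 counts in the lower levels at 6 weeks was not tested beyond leaving libraries out. Without the 4 libraries with many genes at 0 counts, the median log2 fold change of the subunits at 6 weeks was -0.33. In that fit 79 of 84 subunits were lower, against 56.4% of all genes. An unadjusted p under 0.05 was found for 0 subunits, against 0.94% of all genes lower at that limit.

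**Figure D4:**
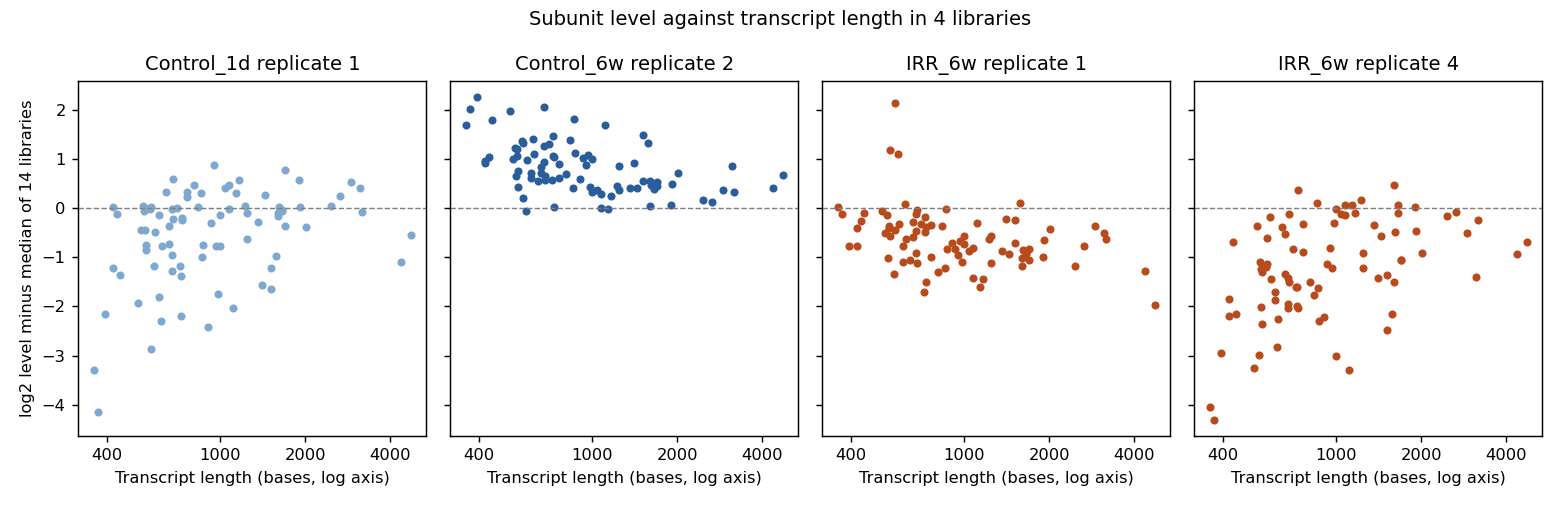
Deviation of each subunit's log2 level from its median over the 14 libraries (y) against the length of its principal coding transcript (x, log axis) in 4 libraries. In Control_1d replicate 1 and IRR_6w replicate 4 the shortest transcripts lie lowest, whereas in Control_6w replicate 2 they lie highest and in IRR_6w replicate 1 most subunits lie below 0 at every length.

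IRR_6w replicate 1 and Control_6w replicate 3, the lowest libraries of their groups by summed level, carried transcripts of other tissues. The 10 cardiomyocyte markers summed to 8832 CPM in IRR_6w replicate 1 and 5370 CPM in Control_6w replicate 3, where the other 6-week libraries had 16942 to 46234 CPM. All 8 brown fat markers had counts in both, and summed to 3300 and 2201 CPM, against 175 to 635 CPM in the other 6-week libraries. The 10 thymus markers summed to 3734 CPM in Control_6w replicate 3 and to 3.83 to 53.9 CPM in the other 6-week hearts. The 8 lung epithelium markers summed to 429 CPM in IRR_6w replicate 1, 29.3 CPM in Control_6w replicate 3 and at most 2.04 CPM in the other 6-week hearts. In IRR_6w replicate 1, Scgb1a1 stood at 345 CPM and Scgb3a2 at 65.5 CPM. Each other lung marker stood at 0 (Cldn18) to 7.54 CPM (Sftpa1) there, with Sftpc at 0.288 CPM. The 10 testis germ cell markers summed to 54.8, 32.8 and 29.9 CPM in Control_6w replicates 1, 2 and 3, and to at most 5.87 CPM in each other library. This list was split. Mael stood at 19.9, 15.1 and 11.4 CPM and Tssk2 at 20.9, 12.1 and 5.64 CPM in those replicates. Ldhc stood at 0 CPM in them, and Prm2 and Tnp1 at 0 CPM in every library. IRR_1d replicate 3, the lowest of its group, had cardiomyocyte markers at 17368 CPM and all 8 brown fat markers, at 1230 CPM, with atrial markers at 1945 CPM and fibroblast markers at 5121 CPM. For brown fat, atrial and fibroblast markers these were the highest sums at 1 day. The summed subunits divided by the summed cardiomyocyte markers gave 1.43, 0.942, 3.13 and 0.876 in Control_6w and 1.87, 0.959, 1.17 and 1.06 in IRR_6w, which overlap. The marker sum of IRR_6w replicate 1 held Myl2 and Myl3 at 5.69 and 21.6 CPM, against 279 to 5579 and 441 to 5389 CPM in the other libraries. At 1 day, the ratio of subunits to cardiomyocyte markers was 0.971, 0.734 and 0.798 in Control_1d and 1.04, 1.03 and 1.12 in IRR_1d, which do not overlap. Both terms differed between libraries, and no test was run on the ratio. The 6 endothelium markers summed to 1369 to 1609 CPM in Control_1d and 989 to 1187 CPM in IRR_1d, which do not overlap. Among them, Kdr was lower in each irradiated heart (169 to 334 CPM, against 414 to 572 CPM), whereas Pecam1 overlapped. At 6 weeks the sums of this list overlapped. The 8 macrophage markers summed to 1134 to 1501 CPM in IRR_6w and 265 to 682 CPM in Control_6w. The 6 fibroblast markers summed to 2324 to 3297 CPM in IRR_6w and 927 to 2178 CPM in Control_6w, so that neither sum overlapped between the groups at 6 weeks. The fibroblast markers did not all go this way. Col1a1, Col1a2, Col3a1 and Lum were higher in IRR_6w without overlap, and Dcn overlapped. Pdgfra stood at 94.5, 75.5, 29.2 and 105 CPM in Control_6w and at 61.0, 55.6, 43.4 and 44.3 CPM in IRR_6w. The share of all genes without overlap is not reported here for the higher direction at 6 weeks or the lower direction at 1 day. How unusual the separation of these markers is was therefore not tested. IRR_6w replicate 1 also had the highest sums of the 5 red cell markers (62955 CPM, against 2109 to 11826 CPM in the other 6-week hearts) and of the 5 atrial markers (2841 CPM, against 9.88 to 334 CPM). The part of these cells in the subunit levels was not tested. Without the 3 libraries with Ucp1 counts, 83 of 85 subunits were lower at 6 weeks, against 53.2% of all genes in that fit. At an unadjusted p under 0.05, 18 were lower, against 3.92% of all genes. The median log2 fold change of the subunits was -0.80. Without all 7 libraries, which leaves IRR_6w replicate 2 as the only irradiated heart at 6 weeks, this median was -0.18. In that fit 73 of 84 were lower, against 52.8% of all genes.

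The ratios of the isoform pairs of complex IV differed between libraries. Muscle cells of the heart use Cox6a2, Cox7a1 and Cox8b, while Cox6a1, Cox7a2 and Cox8a are found in most tissues. Cox6a1 (chr5:115345642-115348981) stood at 327 CPM in Control_6w replicate 3 and 309 CPM in IRR_6w replicate 1, at 140 CPM in IRR_1d replicate 3, and at 8.71 to 80.0 CPM in the other libraries. Cox6a2 (chr7:128205435-128206387) stood at 209, 1046, 66.1 and 640 CPM in Control_6w and at 134, 716, 98.9 and 64.9 CPM in IRR_6w. Per base of gene length, the ratio of Cox6a1 to Cox6a2 was 4.80 in Control_6w replicate 3 and 2.24 in IRR_6w replicate 1, and 0.228, 0.0741 and 0.0912 in the other controls and 0.102, 0.424 and 0.465 in the other irradiated hearts at 6 weeks. At 1 day it was 0.0649, 0.174 and 0.0982 in Control_1d and 0.0795, 0.180 and 0.547 in IRR_1d. The ratio was thus high in the libraries with Ucp1 counts of either treatment, and the groups overlapped. Cox8a was likewise highest in Control_6w replicate 3 and IRR_6w replicate 1, at 133 and 122 CPM, where the others had 21.2 to 72.5 CPM. Cox6b2, Cox6a1 and Cox8a were the 3 subunits that followed the median subunit least over the 14 libraries, with r = -0.09, -0.06 and 0.17, where the median r was 0.85. The libraries share their depth and their scaling, and r is given as a description.

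**Figure D5:**
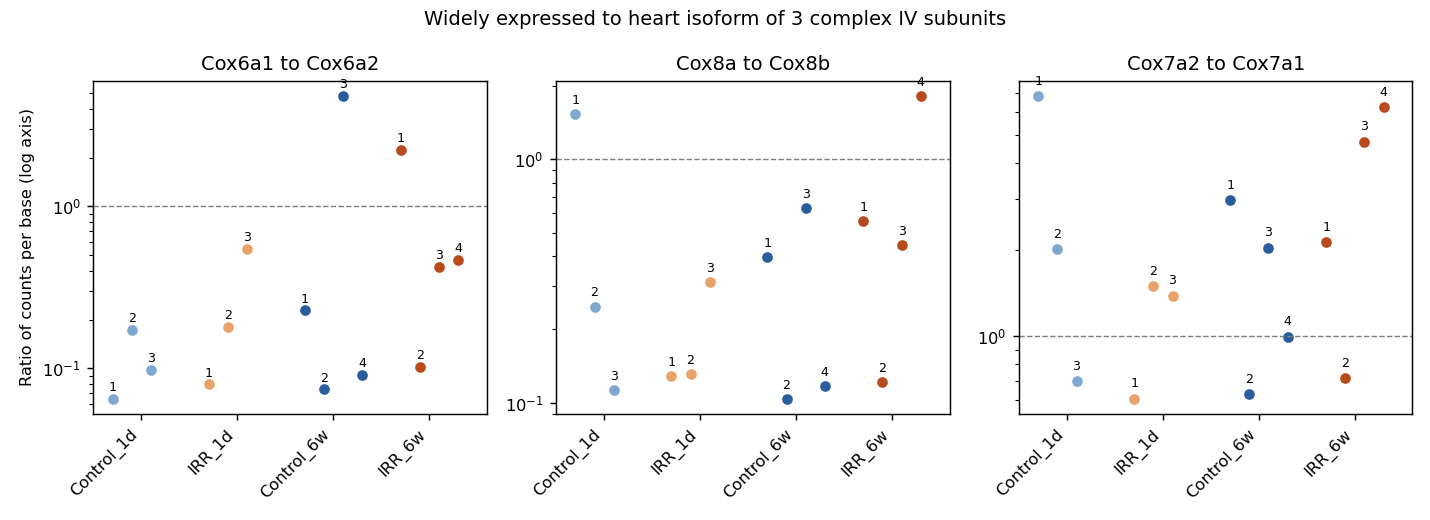
Ratio of the widely expressed to the heart isoform of 3 complex IV subunits in each library (points numbered by replicate, log axis), as counts per base of gene length, with a dashed line at equal levels. Control_6w replicate 3 (4.80) and IRR_6w replicate 1 (2.24) lie above 1 for Cox6a1 to Cox6a2, while for Cox8a to Cox8b it is Control_1d replicate 1 (1.53) and IRR_6w replicate 4 (1.82).

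The heart isoforms Cox8b and Cox7a1 are the shortest of these transcripts, at 360 and 393 bases. Cox8b (chr7:140898945-140900446) stood at 82.8, 462, 139 and 219 CPM in Control_6w and at 145, 321, 53.7 and 7.70 CPM in IRR_6w. Cox7a1 (chr7:30184144-30186078) stood at 63.8, 316, 43.6 and 167 CPM in Control_6w and at 37.8, 215, 16.0 and 7.65 CPM in IRR_6w, and its log2 fold change of -1.10 was the lowest of all subunits, with an SE of 1.01. The ratio of the widely expressed to the heart isoform was highest in Control_1d replicate 1 and IRR_6w replicate 4. Cox8a to Cox8b was 1.53 in Control_1d replicate 1 and 1.82 in IRR_6w replicate 4, against 0.104 to 0.630 elsewhere, and Cox7a2 to Cox7a1 was 6.81 and 6.23 in these libraries, 4.73 in IRR_6w replicate 3 and 0.608 to 2.96 elsewhere. Control_1d replicate 2, where short transcripts were also lower, had 0.248 and 2.01, within the ranges of the other libraries.

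The sequences upstream of the start sites of 5 of these isoforms are shown because the ratios of the pairs differ between libraries and the isoforms differ in base composition and motifs. Each is the 250 bases before the RefSeq start in GRCm38.p6, read 5′ to 3′ on the strand of the gene, and Cox6a2 had no entry. Capitals mark the motifs searched on both strands, which were GCGCA, any base and GCGC for NRF1, CCGGAAG for GABP, TCAAGGTCA for the estrogen-related receptors and AAGATGGCG for YY1, factors known to act on respiratory chain genes.
Cox6a1 promoter, chr5:115348959-115349208, - strand: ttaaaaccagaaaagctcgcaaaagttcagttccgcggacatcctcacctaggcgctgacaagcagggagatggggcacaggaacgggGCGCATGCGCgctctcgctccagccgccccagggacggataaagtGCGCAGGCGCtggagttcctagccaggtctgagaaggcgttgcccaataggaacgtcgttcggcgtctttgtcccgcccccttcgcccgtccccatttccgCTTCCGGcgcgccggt
Cox8a promoter, chr19:7217617-7217866, - strand: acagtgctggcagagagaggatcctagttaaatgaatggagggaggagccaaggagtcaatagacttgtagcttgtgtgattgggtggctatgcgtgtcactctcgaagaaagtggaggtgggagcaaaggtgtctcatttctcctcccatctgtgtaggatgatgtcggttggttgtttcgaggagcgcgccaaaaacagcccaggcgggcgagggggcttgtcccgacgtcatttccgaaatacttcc
Cox8b promoter, chr7:140900447-140900696, - strand: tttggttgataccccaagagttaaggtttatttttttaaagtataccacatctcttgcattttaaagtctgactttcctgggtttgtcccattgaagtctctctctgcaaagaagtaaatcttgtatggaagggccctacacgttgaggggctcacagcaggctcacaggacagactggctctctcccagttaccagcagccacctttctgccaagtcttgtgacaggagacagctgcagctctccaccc
Cox7a2 promoter, chr9:79759854-79760103, - strand: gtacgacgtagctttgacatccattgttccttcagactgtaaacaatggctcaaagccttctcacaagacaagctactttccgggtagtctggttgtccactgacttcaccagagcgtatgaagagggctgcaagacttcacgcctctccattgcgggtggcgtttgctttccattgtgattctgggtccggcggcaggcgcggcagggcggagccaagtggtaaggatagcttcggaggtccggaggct
Cox7a1 promoter, chr7:30183921-30184170, + strand: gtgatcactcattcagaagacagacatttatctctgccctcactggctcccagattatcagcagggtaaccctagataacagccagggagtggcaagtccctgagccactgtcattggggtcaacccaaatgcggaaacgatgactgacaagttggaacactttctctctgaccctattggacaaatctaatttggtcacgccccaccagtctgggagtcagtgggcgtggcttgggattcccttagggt
The widely expressed isoforms held more CpG dinucleotides, with 26 for Cox6a1, 14 for Cox7a2 and 11 for Cox8a, against 4 for Cox7a1 and 1 for Cox8b. G and C made up 62.8, 54.8 and 52.8% of these and 51.2 and 47.2% of the heart isoforms. Cox6a1 held the NRF1 letters at -162 and -117 and the GABP letters, on the opposite strand, at -16 before the start, and none of the 4 motifs was found in the other windows.

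Upstream sequence was at hand for 69 subunits. The NRF1 letters were found in 13 of them, or 18.8%, against 4.23% of 27025 genes in the same window, and the GABP letters in 12, or 17.4%, against 7.83%. The letters of the estrogen-related receptors were found in 1 subunit, or 1.45%, against 0.422%, and those of YY1 in 1, against 0.710%. The letters of the motifs do not contain one another. These are matches of letters and say nothing of binding in these hearts.

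Genes that serve the respiratory chain were also examined. Of 47 assembly factors, which help to build the complexes, 44 were tested and 40 were lower in IRR_6w, against 56.2% of all genes, with a median log2 fold change of -0.37 (all genes, -0.09). The smallest p was that of Ndufaf1, a complex I assembly factor, at a log2 fold change of -0.55 (SE 0.271), and 0 passed an unadjusted p under 0.05. Of 17 regulators of mitochondrial biogenesis, 13 were lower and 4 higher, with a median of -0.32, and Gabpa, the DNA-binding subunit of GABP, had the smallest p, at -0.49 (SE 0.199) with an adjusted p of 0.478 in edgeR's quasi-likelihood test. Nrf1 stood at -0.72 (SE 0.357) and Tfam, which packages mitochondrial DNA and starts its transcription, at -0.48 (SE 0.269). At 1 day, 30 of the 44 assembly factors were lower, with a median of -0.11, and 14 of the 17 regulators, with a median of -0.18, where 44.7% of all genes were lower and the median was 0.06.

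The 13 subunits encoded in mitochondrial DNA were all lower in IRR_6w than in Control_6w, with a median log2 fold change of -1.20, and 4 (mt-Co3, mt-Co2, mt-Atp6 and mt-Nd4l) had an unadjusted p under 0.05, against 3.37% of all genes in this direction. The lowest p was that of mt-Co3, a core subunit of complex IV, at -2.16 (SE 0.692) with an adjusted p of 0.282 in edgeR's quasi-likelihood test. All 13 were also lower in IRR_6w than in IRR_1d, with a median of -1.59. In the same test 8 of them had an unadjusted p under 0.05, against 1.60% of all genes in this direction. Between the controls, 9 were lower at 6 weeks, with a median of -0.32 and 0 at that limit. Mitochondrially encoded transcripts made up 26.9, 25.5, 22.3 and 30.3% of counts in Control_6w and 13.9, 22.2, 16.7 and 10.4% in IRR_6w, which do not overlap by a small margin. At 1 day they made up 20.3, 44.2 and 30.8% in Control_1d and 29.4, 40.2 and 28.1% in IRR_1d. In edgeR, 0 genes of these 3 lists passed an adjusted p under 0.05 in any comparison.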

How the data were processed

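RNA of heart tissue was sequenced from 14 mice. Which part of the heart was taken is not given in the sources used here. The authors trimmed the reads with Trim Galore 0.6.1, checked them with FastQC 0.11.8, aligned them to mm10 with STAR 2.5.0a and deposited raw counts made with HTSeq beside a gene length. The annotation release and the counting of strands are not given in the sources used here. Counts were tested with edgeR 4.0.16 (R 4.3.3) after filterByExpr and TMM scaling, in 1 quasi-likelihood model of the 4 groups, with Benjamini-Hochberg adjustment over 16034 genes. The fold limits are those of the study. The SE of a log2 fold change is its absolute value divided by the square root of the F value of the quasi-likelihood test. DESeq2 1.42.0, limma 3.58.1, other scalings, no filter, a replicate block and leaving out each library were alternatives. The fit was also tested on simulated data, the outcome of which is not reported or used here. Summed levels were given no test. Library deviations used log2(CPM + 1). Transcript lengths and exons came from GENCODE M21, where 81 of the 87 genes had the deposited coordinates. The genes and lists were chosen with earlier results of these data known. Named subunits have the 2 smallest p per complex at each time, the 3 smallest in the other comparisons or the highest level of their complex, or belong to isoform pairs or were not tested. The values of 1 gene that this rule names are not reported here. Ndufs1, Ndufb7, Atp5b, Atp5k and members of the 3 lists were named after their values were seen. The p-values measure the spread between single hearts, and 100 counts are known to about 10% by counting alone.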

Additional observations from a re-analysis of the deposited data

Results flagged for a closer look

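Within groups of 4 hearts, 12 values of single subunits or summed levels lay far from the other 3 hearts of the group, by the gap to the nearest heart over the range of the group. Chance flags about 1 in 20 such groups, and 80 were checked. These checks were not independent, since the first principal component held 71.8% of the subunits' variance, and the rate gives no chance count for them. Of these values, 6 were those of IRR_6w replicate 2, which stood above its group for Ndufv2 (444 CPM), Cox4i1 (944 CPM), Atp5j (375 CPM), Cox6a2 (716 CPM), Cox7a1 (215 CPM) and Ndufa4l2 (24.4 CPM). Control_6w replicate 3 stood below its group for Uqcrc2 (388 CPM) and Atp5c1 (442 CPM) and above it for Cox6a1 (327 CPM). IRR_6w replicate 1 stood above its group for Cox6a1 (309 CPM) and below it for the summed level of complex II (1438 CPM). Cox7b2 stood at 1.47 CPM in IRR_6w replicate 4, above the other 3 hearts.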

How the results depend on the processing

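Under every alternative, 0 subunits were called in each comparison, and the adjusted p of any subunit at 6 weeks was at least 0.186. Counting an unadjusted p under 0.05 with no fold limit gave 2 subunits at 6 weeks and 1 between the irradiated groups. Leaving out 1 library at a time gave medians of -0.16 to 0.51 at 1 day, -1.09 to -0.39 at 6 weeks, -0.08 to 0.60 between the controls, -0.99 to -0.29 between the irradiated groups and -1.22 to -0.49 for the change in effect. The median at 6 weeks was -0.39 without Control_6w replicate 2 and -1.09 without IRR_6w replicate 2. The libraries to leave out for 0 counts or Ucp1 were chosen after seeing the data. Without the 4 libraries with many genes at 0 counts, the change in effect was -0.26, and without Control_6w replicate 3 and IRR_6w replicate 1 the median at 6 weeks was -0.81. Library totals without TMM moved the median of all genes by 0.23 at 6 weeks and left the subunits at -0.45. In that fit 78 of 84 were lower, against 39.7% of all genes. Of 803 alternative values of named subunits, 7 changed direction, all at 1 day. Cycs (-0.17) ranged from -0.60 to 0.0871 when 1 library was left out, with 0.0484 without Control_1d replicate 3 and 0.0871 without IRR_1d replicate 3. It was 0.0837 without the 3 libraries with Ucp1 counts and 0.0697 without all 7 libraries, which also gave 0.0525 for Ndufs4, 0.121 for Sdha and 0.0392 for Atp5c1. Deviations of hearts with the same replicate number from their group means had correlations of -0.13, 0.03 and -0.06 at 1 day. At 6 weeks these were -0.36, 0.33, -0.19 and 0.03. The labels do not say whether the numbers pair the hearts, and correlations over so few hearts cannot decide it. With the replicate block, the median at 6 weeks was -0.74, with 81 lower, against 56.4% of all genes. At an unadjusted p under 0.05, 5 were lower, against 2.23% of all genes. The causes of these changes were not tested. Subunits of few counts, such as Cox6b2 and Cox7b2, are limited by depth.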
